A study of Homo sapiens with 24 samples.

Results

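The messenger RNAs of 10 tubulin genes were followed through the 24 libraries of the series: the alpha-tubulins TUBA1A, TUBA1B, TUBA1C and TUBA4A, the beta-tubulins TUBB, TUBB2A, TUBB3, TUBB4B and TUBB6, and the gamma-tubulin TUBG1. They were taken by symbol from a table of exon counts that lists 60308 genes and from a table of intron counts that lists 37473, and all 10 stand in both. The study used U2OS, a human osteosarcoma cell line, and asked how the RNA of ribonucleoprotein granules depends on the RNA helicase DDX3. Arsenite (NaAsO2) causes oxidative stress and makes cells assemble stress granules, and RK-33 is a small molecule that inhibits the ATPase of DDX3. After lysis and a slow spin that removed nuclei, a fast spin gave a pellet, called insoluble and enriched for granules, and a supernatant, called soluble.

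The 4 treatments were Ctrl (0.12% DMSO for 2 h), NaAsO2 (500 µM for 60 min), RK-33 (6 µM, given as a 1 h pre-treatment) and Combo (the RK-33 pre-treatment followed by the same NaAsO2 dose). Each treatment was measured in both fractions with 3 replicates, which makes 8 groups of 3 libraries from 12 lysates. The pellet is a granule-enriched fraction and not purified granules. All libraries come from 1 cell line in culture, and the labels give no genetic change in any group.

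Alpha- and beta-tubulin pair into the dimers that polymerise into microtubules, and gamma-tubulin sits in the ring complex that nucleates them at the centrosome. Cells hold the amount of free dimer steady by autoregulation: when free tubulin is in excess, the factor TTC5 recognises the first residues of an alpha- or beta-tubulin chain as it leaves the ribosome and, through SCAPER, brings the CCR4-NOT deadenylase to the mRNA being translated, which is then degraded. The process acts on spliced, translated mRNA in the cytoplasm and leaves transcription alone. Exon counts (mostly spliced mRNA) and intron counts (unspliced or partly spliced RNA) of the same gene are therefore set side by side below. Bases that are intron in some annotated transcripts and exon in others count as exon.

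The start of each coding sequence is shown because it encodes the residues through which alpha- and beta-tubulin mRNAs are recognised during autoregulation. Each line holds the first 30 coding bases of a member from GENCODE release 44 transcripts on GRCh38, 5′ to 3′, with the first 4 codons in capitals.
TUBA1A: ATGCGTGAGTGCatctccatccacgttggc
TUBA1B: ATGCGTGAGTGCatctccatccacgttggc
TUBA1C: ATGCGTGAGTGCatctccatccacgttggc
TUBA4A: ATGCGTGAATGCatctcagtccacgtgggg
TUBB: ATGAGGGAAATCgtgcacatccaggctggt
TUBB2A: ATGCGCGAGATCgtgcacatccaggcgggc
TUBB3: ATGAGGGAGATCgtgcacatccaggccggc
TUBB4B: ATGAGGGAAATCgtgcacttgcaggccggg
TUBB6: ATGAGGGAGATCgtgcacatccaggcgggc
TUBG1: ATGCCGAGGGAAatcatcaccctacagttg

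TUBA1A, TUBA1B and TUBA1C had the same 30 bases. In the 4 alpha-tubulin genes a coding intron follows directly after the start codon. The TUBA1A start lies at chr12:49188977-49188979 and chr12:49186807-49186833 on the minus strand. TUBA1B starts at chr12:49131298-49131300 and chr12:49129696-49129722 on the minus strand, and TUBA1C at chr12:49265182-49265184 and chr12:49269465-49269491 on the plus strand. TUBA4A starts at chr2:219253856-219253858 and chr2:219252204-219252230 on the minus strand. The beta-tubulin starts each lie within 1 exon, at chr6:30720507-30720536 (TUBB, plus strand), chr6:3157434-3157463 (TUBB2A, minus), chr16:89923402-89923431 (TUBB3, plus), chr9:137241361-137241390 (TUBB4B, plus) and chr18:12308293-12308322 (TUBB6, plus). TUBG1 starts at chr17:42609738-42609767 on the plus strand.

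The libraries held 8627294 to 15376554 counts on exons and 1621536 to 6092652 on introns. Tubulin exons made up 0.333% to 0.474% of a soluble library's exon total and 0.161% to 0.255% of an insoluble library's, over 12 libraries each. Insoluble NaAsO2 replicate 3 stood apart from its group: the signal recognition particle RNA RN7SL1 took 5.79% of its exon counts against 0.426% to 1.23% in the other 11 insoluble libraries, and 7.51% to 15.5% in the soluble ones. Osteoblast-lineage markers, 10 genes of which 6 were expressed, summed to 8210 CPM (counts relative to the scaled library total) in an insoluble NaAsO2 library and stayed between 1588 and 2995 in every group apart from that one. The 7 blood-cell markers summed to at most 3.20 CPM, the 7 epithelial ones to 16.1 to 25.4 CPM, and the 10 neuron markers to 123 to 221 CPM. Calls for the members that use insoluble NaAsO2 replicate 3 are followed by their value without it, whereas medians, counts over all genes and figures use all libraries. What set that library apart was not tested.

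In Ctrl cells, levels per kilobase of exon in the soluble fraction ran from TUBB, the main beta-tubulin, at 370 ± 49.3 CPM per kb (SD, n = 3) and TUBB4B at 307 ± 37.3 to TUBB3, the neuronal beta-tubulin, at 1.97 ± 0.269. The means of TUBB and TUBB4B differed by less than the sum of their SDs. The lengths used are the merged exons of all annotated transcripts, 4071 bases for TUBB, 2037 for TUBB4B and 7421 for TUBB3. Their reference transcripts have 2515, 1563 and 1706 bases, so the order of genes and the distances between them depend on the length used. TUBA1B, the main alpha-tubulin of dividing cells, stood at 142 ± 22.1 CPM per kb, TUBB6 at 97.1 ± 11.8, TUBA1C at 51.1 ± 5.52 and TUBG1 at 22.7 ± 4.05. TUBA1A followed at 15.6 ± 0.775, TUBB2A at 7.71 ± 0.553 and TUBA4A at 3.99 ± 0.402. Fractions are compared per library total, so a value says how large a share of its fraction's exon counts an mRNA took, and in such bulk samples fewer cells and less RNA per cell cannot be told apart.

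**Figure D1:**
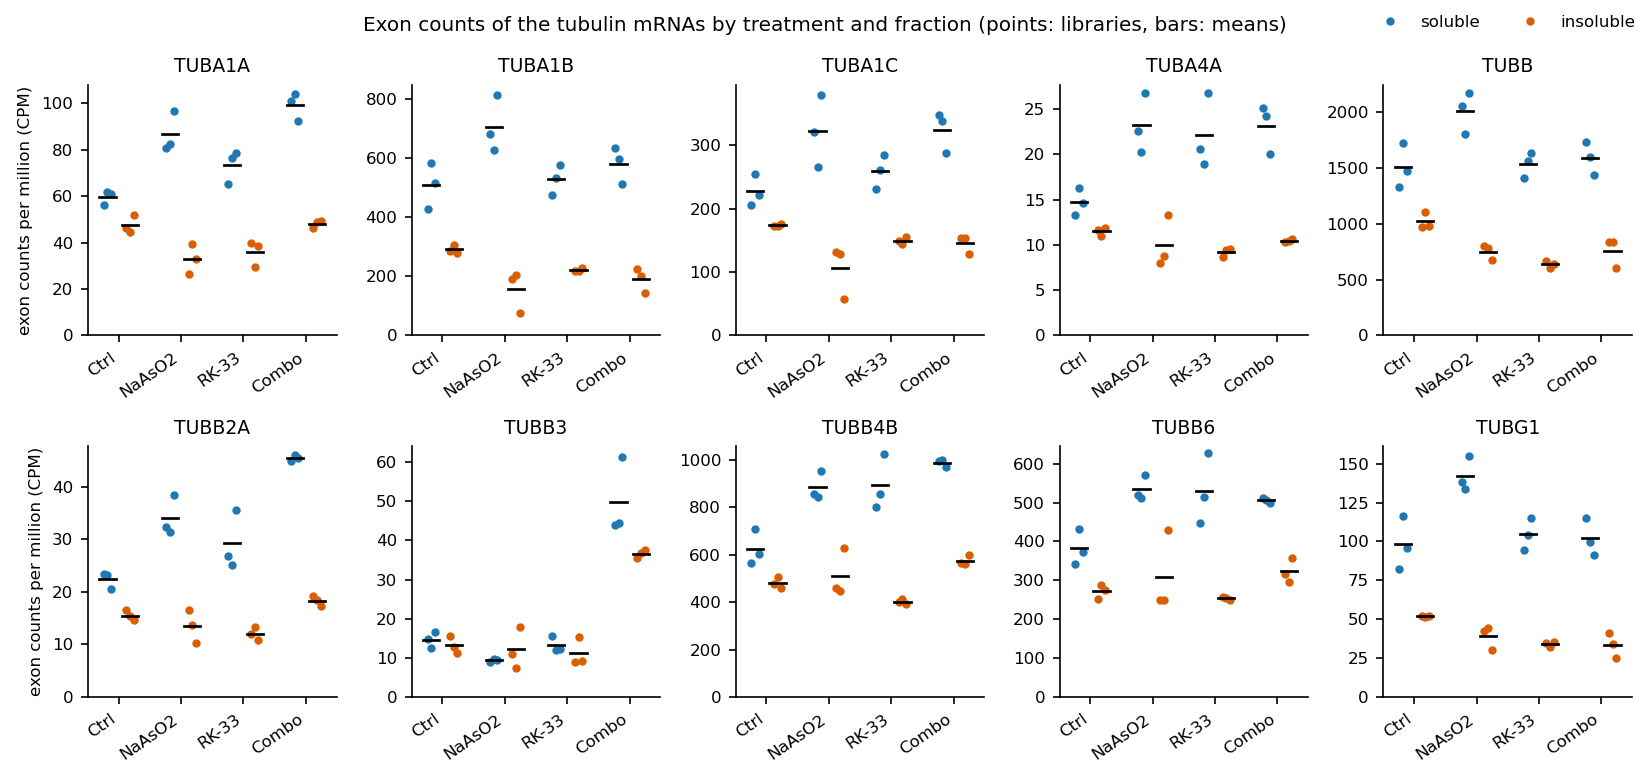
Exon level (CPM, linear axis from 0) of each member in every library, by treatment, with soluble libraries in blue, insoluble ones in orange and the group mean as a black bar. TUBB3 stands out through its Combo libraries, 43.8 to 61.4 CPM in the soluble fraction against 9.03 to 16.5 in the other soluble groups.

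Arsenite raised 6 of the 10 tubulin mRNAs in the soluble fraction, TUBA1A, TUBA4A, TUBB, TUBB2A, TUBB4B and TUBG1, by 1.3 to 1.6-fold. Of the insoluble mRNAs 5 of 10 fell, TUBA1A, TUBA1B, TUBA1C, TUBB and TUBG1. TUBA1A, TUBB and TUBG1 passed the test in both fractions, in opposite directions. The soluble count of 6 became 0 without soluble NaAsO2 replicate 3, 1 without soluble Ctrl replicate 1, 2 without soluble Ctrl replicate 3 and 10 without insoluble NaAsO2 replicate 3, which enters the shared estimate of spread. The insoluble count of 5 became 3 without insoluble NaAsO2 replicate 3 or without insoluble Ctrl replicate 2. With library sizes not scaled by TMM the soluble count was 3, and with no filter on low counts the insoluble count was 2. Over all 17666 genes tested on exons, 6.31% were called higher and 7% lower (13.3% either way) among soluble libraries, and 21.2% higher and 21.8% lower (43.1% either way) among insoluble ones. The members' median log2 fold change was 0.50 in the soluble fraction, where the median of all genes was 0.03, and −0.31 in the insoluble fraction, where it was −0.02. Tests are edgeR's quasi-likelihood test with Benjamini-Hochberg adjustment over all genes, called at an adjusted p below 0.05, and errors of log2 fold changes are standard errors.

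TUBA1A, the alpha-tubulin best known from developing neurons, stood at 56.3, 61.7 and 61.1 CPM in the soluble Ctrl libraries and at 80.7, 82.7 and 96.5 in the soluble NaAsO2 libraries. All NaAsO2 values lay above all Ctrl values, a log2 fold change of 0.54 ± 0.13 (adjusted p = 0.01). Insoluble TUBA1A went from 46.2, 44.7 and 51.8 CPM to 26.5, 39.3 and 33, a log2 fold change of −0.53 ± 0.14 (adjusted p = 0.0036). The groups again did not overlap, and the value was −0.46 without insoluble NaAsO2 replicate 3 (adjusted p = 0.01).

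TUBA1B stood at 287, 306 and 280 CPM in the insoluble Ctrl libraries and at 189, 205 and 74.5 in the insoluble NaAsO2 libraries, a log2 fold change of −0.89 ± 0.24 (adjusted p = 0.0045). The lowest of these is replicate 3, and without that library the log2 fold change was −0.49 (adjusted p = 0.0083). TUBA1C, its close relative, went from 173, 172 and 176 CPM to 131, 128 and 58. Its log2 fold change was −0.71 ± 0.20 (adjusted p = 0.0067), and −0.35 (adjusted p = 0.023) without replicate 3. In the soluble fraction neither gene passed: TUBA1B gave 427, 584 and 515 CPM in Ctrl against 681, 626 and 811 in NaAsO2 (log2 fold change 0.47, adjusted p = 0.18), and TUBA1C gave 0.50 (adjusted p = 0.092). TUBA4A, an alpha-tubulin expressed at a low level here, had 13.3, 16.3 and 14.7 CPM in soluble Ctrl and 22.6, 20.2 and 26.7 in soluble NaAsO2. The groups did not overlap, and the log2 fold change was 0.65 ± 0.17 (adjusted p = 0.012). Insoluble TUBA4A gave −0.22 ± 0.18 (adjusted p = 0.32), and −0.39 (adjusted p = 0.054) without replicate 3.

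Among the beta-tubulins, TUBB stood at 1326, 1723 and 1475 CPM in soluble Ctrl and at 2051, 1801 and 2169 in soluble NaAsO2. The lowest NaAsO2 library was just above the highest Ctrl library, and the log2 fold change was 0.41 ± 0.13 (adjusted p = 0.043). Insoluble TUBB went from 973, 1105 and 984 CPM to 799, 780 and 675, a log2 fold change of −0.44 ± 0.13 (adjusted p = 0.011). Without insoluble NaAsO2 replicate 3 it was −0.30 (adjusted p = 0.069), and the call was lost. TUBB4B, a broadly expressed beta-tubulin, rose in the soluble fraction from 564, 711 and 602 CPM to 858, 844 and 955 (log2 fold change 0.50 ± 0.13, adjusted p = 0.01). Its insoluble values were 479, 505 and 460 CPM in Ctrl and 459, 447 and 629 in NaAsO2, which overlapped. TUBB2A rose in the soluble fraction from 23.5, 23.2 and 20.6 CPM to 32.3, 31.3 and 38.5, without overlap (log2 fold change 0.60 ± 0.15, adjusted p = 0.011). TUBB6 gave 0.48 ± 0.16 in the soluble fraction (adjusted p = 0.053). TUBB3 was the only member with a negative value in the soluble fraction, from 14.9, 12.5 and 16.5 CPM to 9.03, 9.77 and 9.55, a log2 fold change of −0.63 ± 0.25 that did not pass (adjusted p = 0.095).

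TUBG1, the gamma-tubulin, stood at 82, 117 and 95.5 CPM in soluble Ctrl and at 138, 134 and 155 in soluble NaAsO2 (log2 fold change 0.54 ± 0.16, adjusted p = 0.029). Insoluble TUBG1 went from 52, 51.5 and 51.9 CPM to 42.3, 44.2 and 30.2 (log2 fold change −0.41 ± 0.16, adjusted p = 0.049). The lowest value is again replicate 3, without which the log2 fold change was −0.19 (adjusted p = 0.31).

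Between the fractions, 7 of the 10 tubulin mRNAs were lower in the insoluble than in the soluble fraction of Ctrl cells and 9 of 10 were lower in each of NaAsO2, RK-33 and Combo. Of all genes tested, 26.6%, 29.7%, 30.4% and 28% were called lower in the same order, and 51%, 57.6%, 59.6% and 52.1% either way. The members' median log2 difference, insoluble minus soluble, was −0.44 in Ctrl, −1.36 in NaAsO2, −1.20 in RK-33 and −1.11 in Combo, and the medians of all genes lay between −0.03 and 0.03.

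TUBG1 had a difference of −0.92 ± 0.16 in Ctrl (adjusted p = 7.3e-05), −1.87 in NaAsO2, and −1.62 in both RK-33 and Combo. Its insoluble libraries held 25 to 52 CPM and its soluble ones 82 to 155, so the fractions did not overlap. TUBA1B had the lowest single value, −2.17 ± 0.24 in NaAsO2 (adjusted p = 8.7e-08), and −1.80 without insoluble NaAsO2 replicate 3. TUBB ran from −0.56 ± 0.13 in Ctrl (adjusted p = 0.0013) to −1.42 ± 0.14 in NaAsO2 (adjusted p = 7.5e-09). TUBA1A was called in Ctrl at −0.33 ± 0.13 (adjusted p = 0.045), but not when same-numbered fractions were paired by replicate (−0.33, adjusted p = 0.067). TUBA1C at −0.39 and TUBA4A at −0.36 did not pass in Ctrl, and both passed in the other 3 treatments. TUBB4B and TUBB6 had the smallest differences of the 9 members called in NaAsO2, −0.79 each. TUBB3 passed in no treatment, with −0.14 ± 0.24 in Ctrl, 0.33 ± 0.25 in NaAsO2, −0.25 ± 0.24 in RK-33 and −0.44 ± 0.22 in Combo. Leaving out insoluble NaAsO2 replicate 3 gave 9 members called in NaAsO2, at −1.68 for TUBG1, −1.43 for TUBA4A, −1.35 for TUBA1A, −1.31 for TUBB, −1.27 for TUBA1C, −1.13 for TUBB2A, −1.06 for TUBB6 and −0.93 for TUBB4B beside TUBA1B above, and TUBB3 stood at −0.00.

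**Figure D2:**
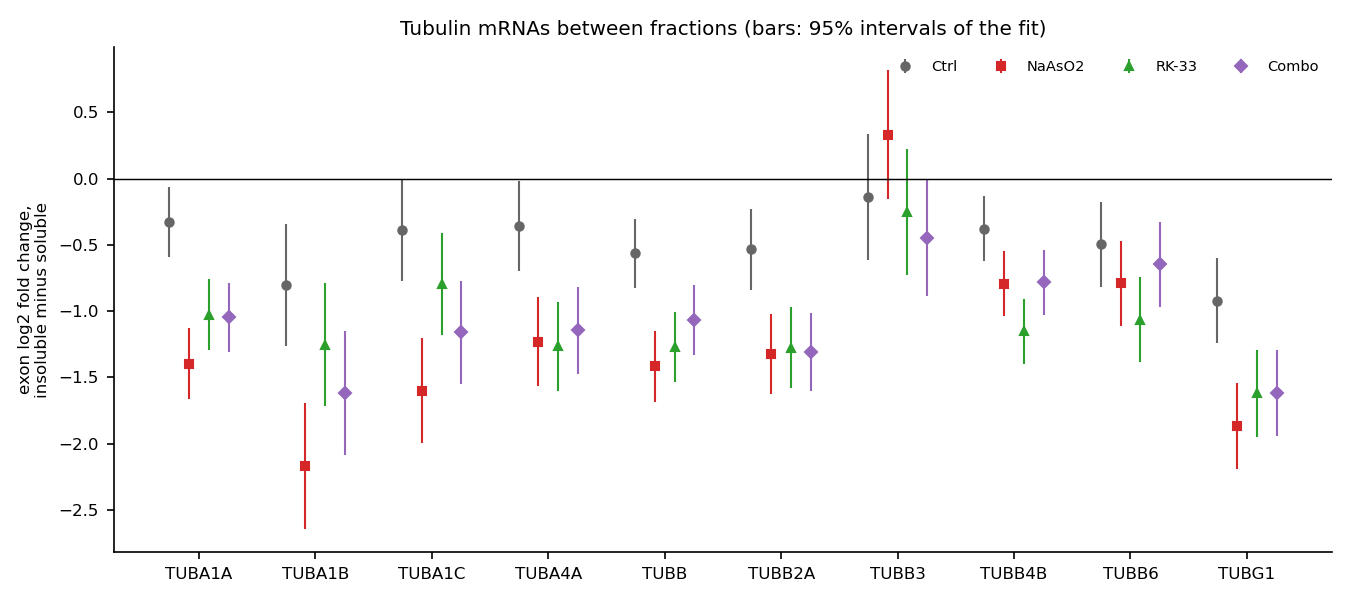
Exon log2 difference, insoluble minus soluble, for the 10 members in the 4 treatments, with 95% intervals from the fit and a line at 0. TUBB3 is the member whose intervals reach 0 or lie nearest to it in every treatment, while TUBA1B in NaAsO2 lies lowest at −2.17.

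The difference between fractions itself shifted under arsenite. The shift, NaAsO2 minus Ctrl of the insoluble-minus-soluble difference, was tested directly and was called negative for 7 of 10 members, beside 11.4% of all genes (22.3% called either way). It was −1.37 ± 0.33 for TUBA1B (adjusted p = 0.0048), −1.21 ± 0.28 for TUBA1C (adjusted p = 0.0032) and −1.07 ± 0.19 for TUBA1A (adjusted p = 3.5e-04). TUBG1 gave −0.94, TUBA4A −0.87, TUBB −0.85 and TUBB2A −0.79. The members' median was −0.86 and that of all genes −0.02. TUBB4B at −0.41 (adjusted p = 0.096), TUBB6 at −0.29 (adjusted p = 0.38) and TUBB3 at 0.47 (adjusted p = 0.35) did not pass. Without insoluble NaAsO2 replicate 3, 9 members passed, TUBB4B at −0.51 and TUBB6 at −0.52 among them, and the other 7 stood at −1.03 (TUBA4A), −0.98 (TUBA1A), −0.95 (TUBA1B), −0.83 (TUBA1C), −0.71 (TUBG1), −0.70 (TUBB) and −0.55 (TUBB2A). The change of the same difference from NaAsO2 to Combo was called for 0 of 10 members with edgeR, beside 0.357% of all genes. The values ran from −0.78 for TUBB3 to 0.56 for TUBA1B, and 1 member had an unadjusted p under 0.05. DESeq2 and edgeR's likelihood ratio test called 0 as well.

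The balance between beta- and alpha-tubulin mRNA also differed between libraries. Summed over members, soluble libraries held 2.85 to 3.46 beta counts per alpha count, 3.34 to 3.46 in RK-33 and 2.85 to 3.30 in the other treatments. Insoluble Ctrl libraries held 3.35 to 3.61 and insoluble RK-33 libraries 3.03 to 3.24. Insoluble NaAsO2 libraries held 3.92, 4.32 and, in replicate 3, 9.86, and insoluble Combo libraries 4.09 to 4.87. All insoluble libraries given arsenite were therefore above all those not given it, which is stated as values with no test.

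RK-33 alone gave few calls among the tubulin mRNAs. Their values leaned to 1 side all the same, with 9 of 10 above 0 in the soluble fraction and 10 of 10 below 0 in the insoluble one. In the soluble fraction 2 of 10 were called higher than in Ctrl, beside 2.09% of all genes called higher and 5.33% either way, and in the insoluble fraction 2 of 10 were called lower, beside 8.19% called lower, 5.71% higher and 13.9% either way. These comparisons share the Ctrl libraries with the arsenite comparisons above. TUBB4B stood at 803, 855 and 1028 CPM in the soluble RK-33 libraries, all above the 564 to 711 of soluble Ctrl (log2 fold change 0.52 ± 0.13, adjusted p = 0.015). TUBA4A had 20.6, 18.9 and 26.8 CPM against 13.3, 16.3 and 14.7 (log2 fold change 0.58 ± 0.17, adjusted p = 0.042). Leaving out 1 library at a time gave 0 to 4 soluble calls, with 0 when soluble Ctrl replicate 1, soluble Ctrl replicate 3 or soluble RK-33 replicate 3 was left out and 4 without insoluble NaAsO2 replicate 3. Insoluble TUBB fell from 973, 1105 and 984 CPM to 667, 601 and 639, without overlap (log2 fold change −0.68 ± 0.13, adjusted p = 0.0012). TUBG1 fell from 52, 51.5 and 51.9 CPM to 34.4, 31.8 and 35.6 (log2 fold change −0.61 ± 0.17, adjusted p = 0.015). The insoluble count became 1 without insoluble RK-33 replicate 2 and 4 without insoluble NaAsO2 replicate 3. The members' median log2 fold change was 0.24 in the soluble fraction and −0.34 in the insoluble one, and the medians of all genes were −0.01 and −0.00.

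RK-33 given before arsenite raised TUBB3 in both fractions. TUBB3 held 43.8, 44.4 and 61.4 CPM in the soluble Combo libraries, from 650, 477 and 675 counts, against 9.03, 9.77 and 9.55 CPM in NaAsO2, from 80, 98 and 104 counts. The groups were far apart, a 5.27-fold difference (log2 fold change 2.40 ± 0.25, adjusted p = 9.1e-07). Insoluble TUBB3 stood at 35.6, 36.8 and 37.5 CPM in Combo against 11.1, 7.37 and 17.9 in NaAsO2, a 3.07-fold difference (log2 fold change 1.62 ± 0.24, adjusted p = 1.5e-04), and 1.94 on the log2 scale without insoluble NaAsO2 replicate 3, the library with 17.9 CPM. Against RK-33 alone, whose soluble libraries held 15.6, 12 and 12.3 CPM and insoluble ones 9.01, 15.3 and 9.21, Combo was higher by a log2 fold change of 1.90 ± 0.24 among soluble (adjusted p = 1.5e-05) and 1.71 ± 0.24 among insoluble libraries (adjusted p = 6.2e-05). Among the 8 groups the means of TUBB3 ran 49.9 ± 10.0 CPM in soluble Combo, 36.6 ± 0.990 in insoluble Combo, then 14.6 ± 2.00 in soluble Ctrl, 13.3 ± 1.99 in soluble RK-33, 13.3 ± 2.23 in insoluble Ctrl, 12.1 ± 5.34 in insoluble NaAsO2, 11.2 ± 3.58 in insoluble RK-33 and 9.45 ± 0.379 in soluble NaAsO2 (SD, n = 3). From soluble Ctrl down to insoluble RK-33 each neighbour lay within 1 SD of the next. The 6 neuron markers tested had median log2 fold changes of 0.13 (soluble) and 0.11 (insoluble) between Combo and NaAsO2, and their part in the TUBB3 values was not tested.

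The other members moved little between Combo and NaAsO2. TUBB3 was the only 1 of 10 called in the soluble fraction, beside 4.79% of all genes called higher, 1.67% lower and 6.46% either way, and it was called with TUBA1A in the insoluble fraction, 2 of 10 beside 6.88% called higher, 6.9% lower and 13.8% either way. TUBA1A held 46.1, 48.7 and 49.2 CPM in insoluble Combo against 26.5, 39.3 and 33 in insoluble NaAsO2, close to the 44.7 to 51.8 of insoluble Ctrl (log2 fold change Combo against NaAsO2 0.54 ± 0.14, adjusted p = 0.012). TUBA1A stood at 0.49 (adjusted p = 0.02) without insoluble NaAsO2 replicate 3. Without insoluble NaAsO2 replicate 3, 3 members passed in the soluble fraction, and without insoluble Combo replicate 2 only 1 passed in the insoluble one. The remaining soluble log2 fold changes ran from −0.48 for TUBG1 to 0.42 for TUBB2A. Against RK-33 alone, which shares the Combo libraries with the comparison just given, 2 of 10 were higher in the soluble fraction, beside 2.9% of all genes called higher and 3.65% either way, and 3 of 10 in the insoluble fraction, beside 4.17% called higher and 7.12% either way. TUBB2A, a beta-tubulin best known from neurons, passed in both: its soluble values were 44.8, 46 and 45.4 CPM in Combo and 26.9, 25.2 and 35.6 in RK-33 (log2 fold change 0.64 ± 0.15, adjusted p = 0.014). Its insoluble values were 19.3, 18.4 and 17.3 against 11.9, 13.4 and 10.8 (log2 fold change 0.61 ± 0.16, adjusted p = 0.019). TUBB4B passed in the insoluble fraction only, with 564, 561 and 600 CPM in Combo against 400, 415 and 392 in RK-33 (log2 fold change 0.51 ± 0.13, adjusted p = 0.013), and whether its response differed between the fractions was not tested. The soluble count became 1 without soluble RK-33 replicate 1 or 2 or soluble Combo replicate 3 and 4 without insoluble NaAsO2 replicate 3, and the insoluble count became 5 without that last library.

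The effect of RK-33 in the presence of arsenite minus its effect without arsenite was also tested, a contrast chosen after the data were seen. On soluble exon counts TUBB3 was the 1 member of 10 called, at 2.53 ± 0.34 (adjusted p = 7.0e-04), beside 2.09% of all genes called in either direction. The other 9 soluble values ran from −0.58 for TUBA4A to 0.04 for TUBB2A. On insoluble exon counts 4 of 10 were called, all positive, beside 6.22% of all genes called positive, 5.43% negative and 11.6% either way: TUBB3 at 1.87 ± 0.34 (adjusted p = 0.0014), TUBA1A at 0.95 ± 0.19 (adjusted p = 0.0030), TUBB2A at 0.79 ± 0.22 (adjusted p = 0.023) and TUBB at 0.69 ± 0.19 (adjusted p = 0.020). Without insoluble NaAsO2 replicate 3 the soluble count was 4 and the insoluble count 5, at 2.18 for TUBB3, 0.88 for TUBA1A, 0.58 for TUBB2A, 0.56 for TUBB and 0.54 for TUBB4B. The insoluble count was 2 without insoluble RK-33 replicate 3 or insoluble Combo replicate 1 or 2.

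Intron counts were high enough to test for 6 of the 10 genes: TUBA1C, TUBA4A, TUBB, TUBB2A, TUBB4B and TUBB6. TUBA1A and TUBA1B, whose annotated introns span 438 and 42 bases, had 0 intron counts in every library, TUBG1 had 0 to 3, and TUBB3 had a mean below 1 CPM over the 24 libraries. Merged exons cover 3823 of the 4395 bases of TUBA1A and 3574 of the 3616 of TUBA1B, including most of the intron after the start codon. The exon counts of TUBA1A and TUBA1B can therefore hold unspliced RNA, and their 0 intron counts say nothing about splicing. Merged exons are also longer than the reference transcript in TUBB4B (2037 against 1563 bases) and TUBB2A (2907 against 1616). Exon counts of these genes may hold unspliced RNA too. TUBB3 had most of its intron counts in Combo, with 6, 4 and 8 in the soluble libraries against 0 in each NaAsO2 library, and 19, 9 and 16 in the insoluble libraries against 4, 2 and 2, and these were not tested. The genes differed widely in intron counts per 100 exon counts, a ratio that takes no account of intron length. Annotated introns span 28664 bases in TUBB6, 22920 in TUBA4A, 3798 in TUBB and 384 in TUBB4B. The ratios therefore cannot be compared between genes as they stand. TUBB6 carried 60.6, 37.4 and 47.9 intron counts per 100 exon counts in soluble Ctrl and TUBA4A between 35.7 and 73.9 over the soluble libraries, whereas TUBB carried 0.393, 0.336 and 0.363 and TUBB4B 0.808, 0.285 and 0.391. Introns made up 13.3% to 37.5% of all counts in a library, 30.5% to 36.3% in insoluble Ctrl against 17.2% to 24.4% in insoluble NaAsO2, and intron fold changes are relative to each library's intron counts.

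Under arsenite the introns of TUBB4B rose where its exons rose less or did not pass. TUBB4B had 49, 22 and 22 intron counts in soluble Ctrl and 67, 69 and 77 in soluble NaAsO2, without overlap (log2 fold change 1.63 ± 0.30, adjusted p = 0.0013). It was the 1 member of 6 called in the soluble fraction, beside 5.27% of all 17406 genes tested on introns. Its insoluble libraries had 29, 36 and 26 counts in Ctrl and 89, 77 and 133 in NaAsO2 (log2 fold change 2.25 ± 0.30, adjusted p = 4.8e-06), and 1.84 without insoluble NaAsO2 replicate 3. There 3 of 6 were called, 2 higher and 1 lower, beside 18.7% and 12.6% of all genes (31.3% either way). TUBB2A had 7, 4 and 2 insoluble intron counts in Ctrl and 12, 8 and 7 in NaAsO2, groups at a very low depth that met at 7 (log2 fold change 1.5 ± 0.42, adjusted p = 0.0082), and 1.54 (adjusted p = 0.021) without replicate 3. TUBB went the other way, with 31, 32 and 30 insoluble intron counts in Ctrl and 14, 9 and 3 in NaAsO2 (log2 fold change −1.36 ± 0.36, adjusted p = 0.0051), and −1.05 (adjusted p = 0.034) without replicate 3. RK-33 alone was called for 0 of 6 members in either fraction with edgeR, beside 1.07% and 2.8% of all genes, and 2 members in each fraction had an unadjusted p under 0.05. DESeq2 and the likelihood ratio test called 0 there too.

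Combo raised the introns of TUBB4B and TUBB2A further. TUBB4B reached 389, 309 and 367 soluble intron counts in Combo, against 67, 69 and 77 in NaAsO2 and 61, 55 and 48 in RK-33. Its log2 fold change was 1.68 ± 0.26 against NaAsO2 (adjusted p = 2.4e-05) and 2.57 ± 0.27 against RK-33 (adjusted p = 2.1e-08). Insoluble TUBB4B had 265, 226 and 383 intron counts in Combo, a log2 fold change of 1.05 ± 0.25 against NaAsO2 (adjusted p = 0.0025) and 2.79 ± 0.27 against RK-33 (adjusted p = 5.2e-09). The former was 1.47 without insoluble NaAsO2 replicate 3 (adjusted p = 7.0e-06). TUBB2A had 62, 48 and 62 soluble intron counts in Combo, against 9, 10 and 8 in NaAsO2, 7, 7 and 2 in RK-33 and 9, 8 and 6 in Ctrl. Its log2 fold change was 2.02 ± 0.30 against NaAsO2 (adjusted p = 1.7e-05) and 3.30 ± 0.33 against RK-33 (adjusted p = 9.5e-09). Its insoluble Combo libraries had 38, 47 and 23 intron counts, 1.51 ± 0.31 above NaAsO2 (adjusted p = 7.3e-04), and 1.47 (adjusted p = 0.0026) without that library. In raw counts, which take no account of depth, no Combo library of either gene overlapped with a library of another treatment in the same fraction. As intron CPM, insoluble TUBB4B was 67.3 ± 26.6 in Combo and 32.7 ± 14.6 in NaAsO2 (SD, n = 3). On that scale these 2 groups overlapped through insoluble NaAsO2 replicate 3.

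TUBB4B and TUBB2A were the 2 of 6 members whose introns were called between Combo and NaAsO2 in each fraction, beside 9.54% of all genes called higher and 14.4% either way among soluble libraries, and 13.1% and 26.6% among insoluble ones. The insoluble count was 3 without insoluble NaAsO2 replicate 3, with TUBB6 at 0.43 (adjusted p = 0.017). Against RK-33, 4 of 6 were higher in the soluble fraction, beside 16.5% of all genes called higher and 28.7% either way, and 5 of 6 in the insoluble fraction, beside 15.6% and 29.8%. The soluble count was 2 without soluble RK-33 replicate 1 or 2 or without any 1 of the 3 soluble Combo replicates. TUBB6 passed in both, at 0.37 ± 0.14 (adjusted p = 0.044) and 0.78 ± 0.14 (adjusted p = 6.4e-05). TUBB passed in the soluble fraction at 0.73 ± 0.26 (adjusted p = 0.036). TUBA4A, with 65, 53 and 41 insoluble intron counts in Combo against 16, 26 and 19 in RK-33, passed in the insoluble fraction at 1.51 ± 0.31 (adjusted p = 3.8e-04), and so did TUBA1C at 1.10 ± 0.40 (adjusted p = 0.037). The effect of RK-33 with arsenite minus that without was called on introns for 1 of 6 members in the soluble fraction, TUBB2A at 2.67 ± 0.53 (adjusted p = 0.0025), beside 3.61% of all genes. Among insoluble libraries it was called for TUBB at 1.52 ± 0.49 (adjusted p = 0.042) and TUBB6 at 0.61 ± 0.19 (adjusted p = 0.038), 2 of 6 beside 11.9%. These became 0 without any 1 of the insoluble Ctrl replicates, without insoluble RK-33 replicate 2 or without insoluble Combo replicate 2. With insoluble NaAsO2 replicate 3 left out, TUBB stood at 1.22 (adjusted p = 0.098), a lost call, and TUBB6 at 0.78 (adjusted p = 0.0031).

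Introns of the members, like their exons, took a smaller share of the insoluble than of the soluble libraries. They were called lower for 5 of 6 members in Ctrl, 4 of 6 in NaAsO2, 5 of 6 in RK-33 and 6 of 6 in Combo, beside 21.4%, 10.9%, 24.8% and 16.3% of all genes called lower, and 39.6%, 22.8%, 47.8% and 29.9% called either way. The NaAsO2 count was 2 without insoluble NaAsO2 replicate 1. TUBA4A had the lowest value in NaAsO2, RK-33 and Ctrl, with 103, 118 and 95 soluble intron counts in Ctrl against 14, 20 and 29 insoluble ones (log2 difference −2.94 ± 0.29, adjusted p = 2.9e-08). TUBB4B stood at −0.63 in Ctrl (adjusted p = 0.14) and at −0.00 in NaAsO2 (adjusted p = 0.99). TUBB6 was called in NaAsO2 at −0.39 ± 0.14 (adjusted p = 0.042), but not when same-numbered fractions were paired by replicate (−0.40, adjusted p = 0.064). The NaAsO2 values without insoluble NaAsO2 replicate 3 were −2.82 for TUBA4A, −2.20 for TUBB, −1.72 for TUBA1C and −0.55 for TUBB6, all still called, and −0.41 for TUBB4B (adjusted p = 0.21). No member's intron difference between fractions shifted from Ctrl to NaAsO2 in edgeR's test, 0 of 6 beside 1.86% of all genes, and 1 member had an unadjusted p under 0.05. The same holds from NaAsO2 to Combo, 0 of 6 beside 0% of all genes, where 0 members had an unadjusted p under 0.05. DESeq2 and the likelihood ratio test gave 0 for both.

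**Figure D3:**
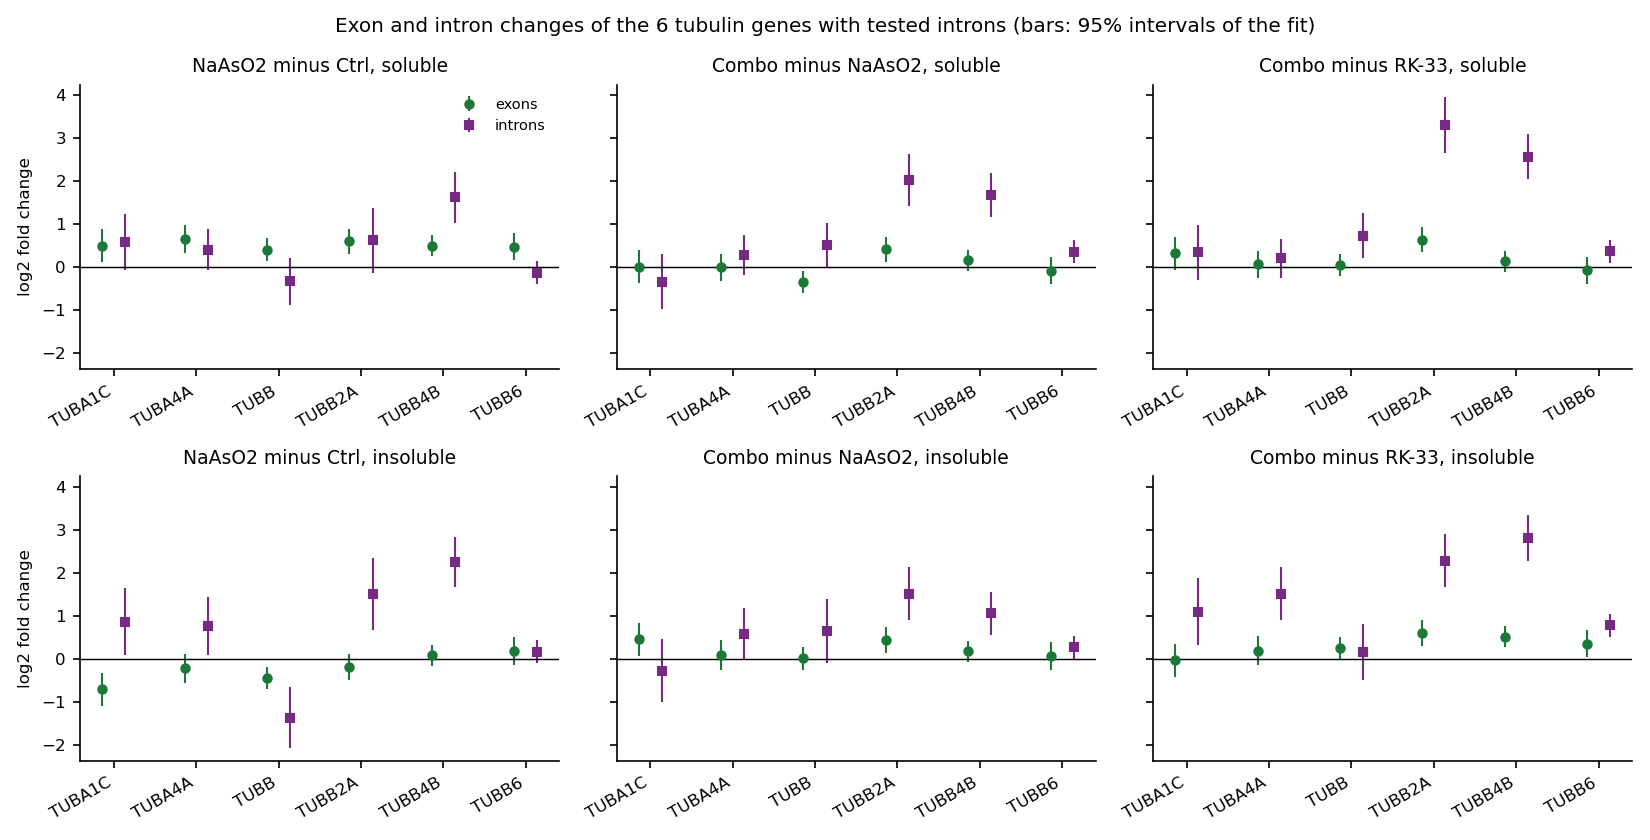
Log2 fold changes of exons (circles) and introns (squares) with 95% intervals, for the 6 members with testable introns, in 3 treatment comparisons and both fractions, with a line at 0. The intron squares of TUBB4B and TUBB2A lie far above their exon circles in the Combo comparison, whereas the insoluble TUBB square under NaAsO2 lies below its circle.

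Exon and intron changes were then compared directly, as the exon log2 fold change minus the intron log2 fold change, over 13116 genes with both. Under arsenite in the soluble fraction 3 of 6 members differed, beside 17% of all genes, and 1 of 6 without soluble Ctrl replicate 1. TUBB at 0.75 ± 0.22 (adjusted p = 0.020) and TUBB6 at 0.61 ± 0.16 (adjusted p = 0.0074) gained exon relative to intron signal, and TUBB4B at −1.12 ± 0.27 (adjusted p = 0.0052) gained intron relative to exon signal. The value of TUBB can be read from its 0.393, 0.336 and 0.363 intron counts per 100 exon counts in soluble Ctrl against 0.187, 0.155 and 0.165 in soluble NaAsO2. Of the insoluble values 5 of 6 differed, beside 33.2% of all genes: TUBB4B at −2.13 ± 0.26 (adjusted p = 1.3e-06), TUBB2A at −1.69 ± 0.42 (adjusted p = 0.0030), TUBA1C at −1.58 ± 0.46 (adjusted p = 0.0099), TUBA4A at −1.0 ± 0.31 (adjusted p = 0.015) and TUBB at 0.94 ± 0.31 (adjusted p = 0.020). Without insoluble NaAsO2 replicate 3 the calls of TUBA1C at −0.73 (adjusted p = 0.17) and TUBB at 0.75 (adjusted p = 0.075) were lost, and those of TUBB4B at −1.86, TUBB2A at −1.52 and TUBA4A at −0.94 held.

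Between Combo and NaAsO2 the soluble difference was called for 3 of 6 members, beside 13.2% of all genes, all negative: TUBB2A at −1.61 ± 0.28 (adjusted p = 2.1e-04), TUBB4B at −1.52 ± 0.23 (adjusted p = 3.0e-05) and TUBB at −0.86 ± 0.22 (adjusted p = 0.0075). Among insoluble libraries TUBB2A at −1.09 ± 0.30 (adjusted p = 0.012) and TUBB4B at −0.87 ± 0.22 (adjusted p = 0.0072) were called, 2 of 6 beside 19.6%, and 1 of 6 without insoluble Combo replicate 2. TUBB2A stood at −1.25 and TUBB4B at −1.13 without insoluble NaAsO2 replicate 3, both called. Relative to exons, TUBB4B thus carried 2.63, 2.87 and 3.44 intron counts per 100 exon counts in soluble Combo and 3.52, 3.1 and 4.4 in insoluble Combo. TUBB2A carried 9.32, 9.72 and 12.4 in soluble Combo against 3.57, 3.17 and 3.12 in soluble Ctrl. Between Combo and RK-33, 4 of 6 differed in each fraction, beside 23.1% and 29.7% of all genes, with soluble values of −2.63 for TUBB2A and −2.41 for TUBB4B and insoluble values of −1.68 and −2.23. The soluble count was 2 without soluble RK-33 replicate 2 or soluble Combo replicate 3. RK-33 alone gave 1 of 6 in the soluble fraction, TUBB6 at 0.60 ± 0.16 (adjusted p = 0.036), beside 2.32% of all genes, a call lost without any 1 of the soluble Ctrl replicates and without soluble RK-33 replicate 2 or 3. The insoluble count was 0 of 6 with edgeR, DESeq2 and the likelihood ratio test, beside 8.52%, where 2 members had an unadjusted p under 0.05, and 1 without insoluble NaAsO2 replicate 3.

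Between fractions, the introns of TUBA4A were lower in the pellet by more than its exons in every treatment. Its exon minus intron differences were 2.60 in Ctrl, 1.35 in NaAsO2, 2.35 in RK-33 and 1.13 in Combo. The same held for TUBB in Ctrl at 0.92, in NaAsO2 at 1.11 and in Combo at 1.34. The calls numbered 3, 4, 3 and 2 of 6 in Ctrl, NaAsO2, RK-33 and Combo, beside 34.5%, 41.3%, 38.9% and 35.7% of all genes, and the RK-33 count was 1 without insoluble RK-33 replicate 3. In NaAsO2 TUBB4B at −0.75 (adjusted p = 0.014) went the other way, and without insoluble NaAsO2 replicate 3 it stood at −0.52 (adjusted p = 0.082), TUBA4A at 1.38 and TUBB at 0.89. The nuclear RNAs MALAT1 and others, a list of 6 of which 4 were tested, summed to 4562 to 5900 CPM in insoluble NaAsO2 and 8125 to 10476 CPM in insoluble Combo. All 4 were higher in Combo than in NaAsO2. The same nuclear RNAs summed to 10683 to 13177 CPM in insoluble Ctrl and 10688 to 11652 CPM in insoluble RK-33, both above insoluble Combo. In the soluble fraction they summed to 12065 to 14082 CPM in NaAsO2 and 15130 to 17231 in Combo. Soluble Ctrl libraries held 14603 to 19253 CPM and soluble RK-33 libraries 14936 to 17438. The part of these nuclear RNAs in the intron values of TUBB4B and TUBB2A was not tested.

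**Figure D4:**
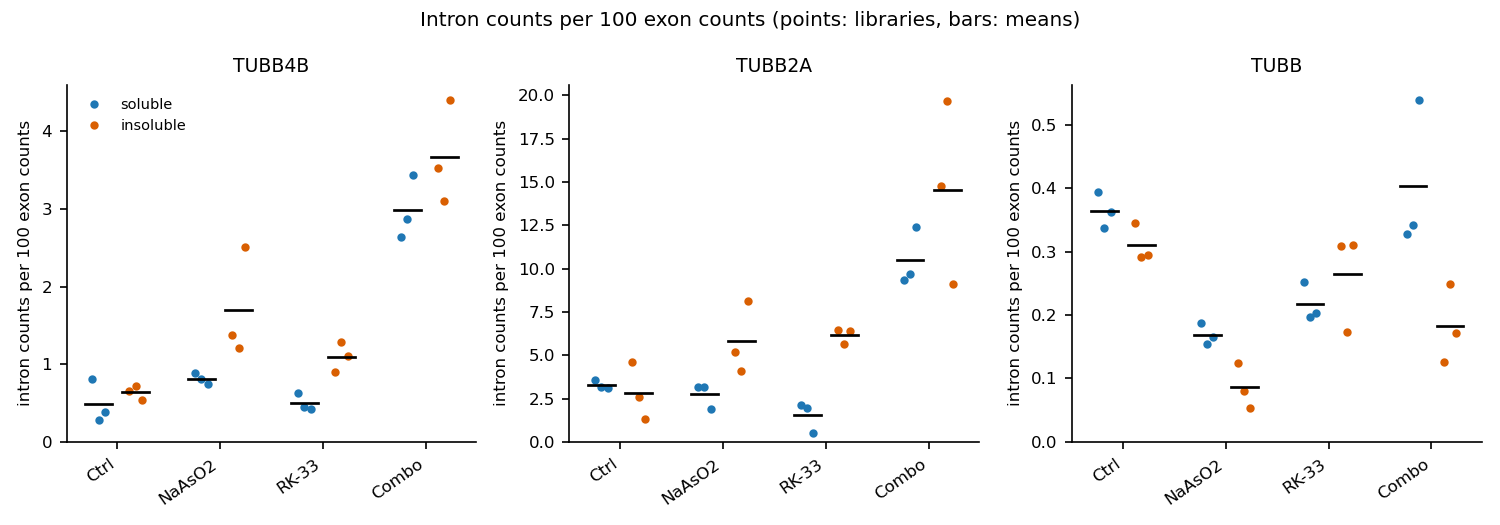
Intron counts per 100 exon counts of TUBB4B, TUBB2A and TUBB in each library, by treatment and fraction, on linear axes from 0. TUBB4B and TUBB2A are highest in Combo, at 2.63 to 4.4 and 9.13 to 19.7, and TUBB is lowest in insoluble NaAsO2, at 0.0527 to 0.125.

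Counting used unique fragments without regard to strand, so reads of a member and of a gene overlapping it on the other strand cannot be told apart. The study's methods do not say whether fragments over shared exon bases were counted or left out, so an overlap may add reads to a member or remove them. On GRCh38, 44% of the exon bases of TUBA1B lie under the antisense gene ENSG00000258017, 21.2% of those of TUBB6 under AFG3L2, 17% of those of TUBA4A under STK16 and 9.02% of those of TUBA1A under TUBA1C. TUBB3 (chr16:89921392-89938761) shares 1584 of its 7421 exon bases (21.3%) with ENSG00000198211 on the same strand, a readthrough gene with 0 to 1 counts. The reference transcript of TUBB3 has 1706 bases. TUBB3 fragments on the shared bases, if counted for both genes, would also appear under ENSG00000198211, which held 0 to 1. Either shared fragments were left out or almost none fell there, and the 0 to 1 counts tell nothing about readthrough. In both cases the counts of TUBB3 come from its other exon bases. Its fold changes describe those bases, and its CPM per kb may be too low. Which bases carry the counts was not tested. The neighbours of TUBB3, named after its values were seen, gave small log2 fold changes between Combo and NaAsO2: MC1R 0.01 (soluble) and −0.12 (insoluble), and DEF8 −0.17 and −0.29. TUBB4B (chr9:137241287-137243707) shares 6.09% of its exon bases with the exons of antisense FAM166A. FAM166A rose in the same comparison by a log2 fold change of 2.3 (adjusted p = 0.0046) and 1.5 (adjusted p = 0.015), from group means of 0.32 to 3.39 CPM over the 8 groups. Introns leave out the exons of all genes by definition, so no intron base of TUBB4B could be shared with them. Whether its intron counts hold antisense reads was not tested. Sequence that recurs elsewhere in the genome, transcribed or not, also limits unique counting. Of the 150-base windows of the TUBB2A transcript 48.7% recur outside the gene, as do 19.2% of those of TUBA1B and 7.81% of those of TUBA1A. None of those of TUBB4B, TUBB6 and TUBA4A do.

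The rest of the tubulin system gave the following counts under arsenite, to be set beside the 13.3% of all genes called among soluble and 43.1% among insoluble libraries. Of 13 other tubulin genes 8 were tested, and TUBA3C at 0.78, TUBB2B at 0.63 and TUBB4A at 0.88 rose and TUBB1 at −1.49 fell in the soluble fraction. TUBA3C at −0.75, TUBE1 at −0.84 and TUBB2B at −0.51 fell in the insoluble one. For the 13 genes of autoregulation and CCR4-NOT the counts were near or below those shares, with 2 called soluble and 4 called insoluble: 2 rose in the soluble fraction, CNOT3 at 0.41 and CNOT10 at 0.48, and in the insoluble fraction CNOT8 rose at 0.30 and CNOT10 at −1.10, CNOT2 at −0.74 and CNOT7 at −0.50 fell. TTC5, which recognises the nascent chain, gave −0.06 (soluble) and 0.18 (insoluble), and SCAPER, which links it to CCR4-NOT, gave 0.36 and −0.50; none of these passed. Of 20 tubulin-folding genes (the CCT chaperonin, prefoldin and tubulin cofactors) 13 rose in the soluble fraction, CCT3 at 0.69 and CCT4 at 0.65 among them, with a median of 0.46. Of the insoluble ones 3 rose and 7 fell, CCT3 at −0.77 and TBCE at −0.60 among those that fell. The shift between fractions was called negative for 10 of 20, beside 11.4% of all genes.

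The remaining lists are set beside the same shares of all genes. Of 10 genes of the gamma-tubulin ring complex, which holds TUBG1, 2 rose among soluble and 1 among insoluble libraries, with medians of 0.31 and 0.02. Of 16 tubulin-modifying enzymes 3 rose in the soluble fraction, the deacetylase HDAC6 at 0.74 and TTLL12 at 0.66 among them, and in the insoluble fraction 2 rose and 3 fell, a smaller share than that of all genes. Of 21 microtubule-binding proteins 6 rose and 2 fell in the soluble fraction, with CKAP5, a microtubule polymerase, at 0.82, and 8 rose and 1 fell in the insoluble fraction, with MAP7D1 at 1.22 and MAP1A at 0.81, so that 9 of 21 were called there, close to the 43.1% of all genes. Of 17 actin and intermediate filament genes 7 rose in the soluble fraction, ACTN4 at 0.94 among them, and 2 fell in the insoluble fraction, VIM at −0.89 and MYL12B at −0.92.

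The profile of each member over the 8 group means was compared with the mean profile of the 9 alpha- and beta-tubulins, as a description with no test; each of these is itself part of that mean. Pearson's r was 0.909 to 0.995 for 8 members, 0.89 for TUBG1 and 0.382 for TUBB3, and all 8 points come from the same libraries. The closest pairs included TUBB with TUBG1 at 0.986, TUBA1B with TUBA1C at 0.974, and TUBB4B with TUBB6 at 0.970. Among 10243 other genes at a mean of 10 CPM or more, those most like this mean profile over the 8 groups were NEK2 (r = 0.986), HOXB9 (0.986), GNL3 (0.985), SRSF7 (0.984) and ENSG00000253227 (0.982).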

How the data were processed

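RNA of 24 libraries was rRNA-depleted and sequenced in pairs. The authors aligned reads with STAR 2.7.2b to GRCh38.p13 and counted unique fragments with featureCounts (Subread), unstranded, over exons and over introns (genes minus the merged exons of all genes); the deposited values are raw counts per gene. Groups come from the labels, which do not say whether replicates are separate cultures, so p-values measure the spread between these samples. From the counts, edgeR 4.0.16 (R 4.3.3; TMM, quasi-likelihood test, 1 fit over all 8 groups, mean of at least 1 CPM) tested 17666 genes on exons and 17406 on introns, with Benjamini-Hochberg adjustment over all genes and calls at an adjusted p below 0.05. Exon minus intron changes were fitted over 48 columns with the library as a block. CPM values use TMM-scaled library sizes. Named genes were all 10 members, in each list up to 4 called genes with the smallest adjusted p for NaAsO2 against Ctrl, and the 5 genes with the closest profiles; TTC5, SCAPER and the neighbouring genes were named outside this rule. The members and gene lists were chosen with earlier results of these data known. The scripts were tested on simulated data.

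Same-numbered fractions come from the same lysate in the study's design, although their deviations correlated at only −0.295 to 0.126. Between treatments, correlations were −0.316 to 0.226, and 0.427 to 0.694 for Combo against NaAsO2 in the insoluble fraction. Alternatives were DESeq2 1.42.0, edgeR's likelihood ratio test, library size without TMM, other filters on low counts, a replicate block, leaving out each library, and, for exon minus intron, a shared library total or no library block.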

Additional observations from a re-analysis of the deposited data

Results flagged for a closer look

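Under arsenite the change of a tubulin mRNA differed between the fractions, by a direct test of the difference (edgeR's quasi-likelihood test with Benjamini-Hochberg adjustment). The insoluble change minus the soluble change was −1.07 on the log2 scale for TUBA1A, −1.37 for TUBA1B, −1.21 for TUBA1C, −0.87 for TUBA4A, −0.85 for TUBB, −0.79 for TUBB2A and −0.94 for TUBG1. All of these calls held without insoluble NaAsO2 replicate 3, at values that are given above and were mostly smaller in size. TUBB3 had the opposite sign, 0.47, and did not pass.

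The exon response to RK-33 differed between cells with and without arsenite, by a contrast chosen after the data were seen. In the soluble fraction it was larger with arsenite by 2.53 for TUBB3. In the insoluble fraction it was larger by 1.87 for TUBB3, 0.95 for TUBA1A, 0.79 for TUBB2A and 0.69 for TUBB. Leaving out insoluble RK-33 replicate 3, insoluble Combo replicate 1 or insoluble Combo replicate 2 lowered the insoluble count to 2.

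The intron response to RK-33 differed in the same way by 2.67 for TUBB2A in the soluble fraction, and by 1.52 for TUBB and 0.61 for TUBB6 in the insoluble fraction. The TUBB call was lost without insoluble NaAsO2 replicate 3. Both insoluble calls were lost without any 1 of the insoluble Ctrl replicates, without insoluble RK-33 replicate 2 or without insoluble Combo replicate 2.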

How the results depend on the processing

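Leaving out 1 library at a time gave these ranges of members called. On exons they were 0 to 10 for NaAsO2 against Ctrl in the soluble fraction, 3 to 5 for the same in the insoluble fraction, 0 to 4 and 1 to 4 for RK-33 against Ctrl (soluble, insoluble), 1 to 3 in each fraction for Combo against NaAsO2, 1 to 4 and 2 to 5 for Combo against RK-33, and 1 to 4 and 2 to 5 for the RK-33 effect with arsenite minus without. On introns they were 2 to 4 for soluble Combo against RK-33, 2 to 4 for the NaAsO2 fractions, and 1 to 2 and 0 to 2 for the RK-33 effect with arsenite minus without. For exon minus intron they were 1 to 3 and 3 to 5 for NaAsO2 against Ctrl, 0 to 1 in each fraction for RK-33 against Ctrl, 2 to 4 for soluble Combo against RK-33, 1 to 2 for insoluble Combo against NaAsO2, and 1 to 3 for the RK-33 fractions. Leaving out soluble NaAsO2 replicate 3, soluble Ctrl replicate 1 or soluble Ctrl replicate 3 lowered the first count to 0, 1 and 2.

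Library size without TMM called 3 members (soluble NaAsO2 against Ctrl, exons), 1 (insoluble RK-33 against Ctrl, exons), 2 (soluble Combo against RK-33, introns) and 1 (insoluble RK-33 effect with arsenite minus without, introns). Without a filter on low counts the exon calls were 1 for soluble RK-33 against Ctrl, 2 for insoluble NaAsO2 against Ctrl, 1 for insoluble Combo against NaAsO2 and 2 for the insoluble RK-33 effect with arsenite minus without, whose intron calls were 1. DESeq2 called 2 members on exons for soluble Combo against NaAsO2, and for exon minus intron 1 for insoluble Combo against NaAsO2 and 1 for the RK-33 fractions. For exon minus intron, no library block gave 1 (soluble NaAsO2 against Ctrl), 0 (soluble RK-33 against Ctrl), 2 (soluble Combo against RK-33) and 3 (insoluble NaAsO2 against Ctrl). A shared exon and intron total gave 0 for soluble RK-33 against Ctrl, 3 for insoluble NaAsO2 against Ctrl, 1 for the Ctrl fractions and 2 for the NaAsO2 fractions. It moved the median of all genes by up to 0.68 between treatments and turned TUBB6 to 0.77 (insoluble NaAsO2 against Ctrl) and 0.054 (insoluble Combo against RK-33).

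The replicate block changed 2 calls where same-numbered fractions share a lysate, TUBA1A in Ctrl and TUBB6 introns in NaAsO2, both given above, and none for insoluble Combo against NaAsO2. Elsewhere the samples share only a number: the block called TUBB6 exons at 0.48 (adjusted p = 0.035) for soluble NaAsO2 against Ctrl and lost TUBB6 exon minus intron at −0.42 (adjusted p = 0.055) for soluble Combo against RK-33. Low intron counts, at most 12 a library for TUBB2A outside Combo, limit the precision of its values. TUBB3 exons kept both direction and call in all 30 alternatives for Combo against NaAsO2 and against RK-33 in both fractions.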
